A study of Mus musculus with 6 samples.

Results

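The ABC transporter family was followed in haematopoietic stem cells (HSCs) that were wild type or lacked the muscarinic acetylcholine receptor gene Chrm1. Members were the genes whose symbol in the platform's probe table was Abca, Abcb, Abcc, Abcd, Abce, Abcf or Abcg followed by a number and an optional letter. They numbered 48 of 22180 genes with a symbol of their own, and each was measured by 1 transcript cluster, the array's unit for a gene. The cells came from the bone marrow of unchallenged mice and were sorted as negative for lineage markers and Flt3 and positive for Sca1 and cKit. Wild type C57Bl/6 mice gave 3 arrays and Chrm1-/- mice, which the labels also place on C57Bl/6, gave 3 arrays. Both groups were at steady state with no treatment named, and the sources used here give neither the age of the mice nor the deleted part of Chrm1. The series concerns how this receptor prepares HSCs to leave the marrow, and its single comparison is Chrm1-/- against wild type.

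ABC transporters are membrane proteins that use the energy of ATP to move drugs, lipids, peptides and metabolites, mostly outward across a membrane. In mouse HSCs they are best known for dye efflux: ABCG2 pumps out Hoechst dye, which sets stem cells apart as a side population, and the P-glycoproteins encoded by Abcb1a and Abcb1b pump out rhodamine and many drugs. Other branches export cholesterol and phospholipid, serve mitochondria or peroxisomes, or, in the E and F branches, carry the ATP-binding domains with no membrane domain and act on ribosomes and translation.

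The 3 dye-efflux pump genes are the members most tied to HSCs, so the RefSeq sequence upstream of their start sites is shown (GRCm38.p6, 250 bases ending just before the annotated start, read 5′ to 3′ on the plus strand, on which all 3 genes lie). Abcb1a and Abcb1b are next to each other among the protein-coding genes of chromosome 5, with Abcb4 next in the row. For Abcg2, on chromosome 6, the table has 3 starts and the most downstream is printed. Capitals mark matches, on either strand, to the GC box GGGCGG, the CCAAT box CCAAT or the TATA box TATAAA.
Abcb1a, chr5:8566841-8567090: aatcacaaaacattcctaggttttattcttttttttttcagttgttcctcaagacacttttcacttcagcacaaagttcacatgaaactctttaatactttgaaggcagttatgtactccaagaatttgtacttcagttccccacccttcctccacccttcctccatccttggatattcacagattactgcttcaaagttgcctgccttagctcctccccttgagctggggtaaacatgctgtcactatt
Abcb1b, chr5:8797897-8798146: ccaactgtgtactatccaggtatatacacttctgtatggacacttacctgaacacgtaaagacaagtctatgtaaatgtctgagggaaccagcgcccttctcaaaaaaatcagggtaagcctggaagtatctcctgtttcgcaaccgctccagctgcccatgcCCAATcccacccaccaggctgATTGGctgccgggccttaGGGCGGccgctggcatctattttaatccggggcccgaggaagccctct
Abcg2, chr6:58640296-58640545: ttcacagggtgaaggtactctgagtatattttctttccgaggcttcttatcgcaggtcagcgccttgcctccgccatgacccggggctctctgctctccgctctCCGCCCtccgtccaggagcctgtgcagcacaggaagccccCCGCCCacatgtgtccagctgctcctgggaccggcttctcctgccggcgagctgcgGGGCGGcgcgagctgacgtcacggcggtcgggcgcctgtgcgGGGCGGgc
The Abcb1a window held 0 matches and 0 CG dinucleotides. The Abcb1b window held 2 CCAAT boxes, 1 GC box and 9 CG dinucleotides. The Abcg2 window held 4 GC boxes and 23 CG dinucleotides, where the median of all windows was 6. The windows of the other starts of Abcg2 held 0 and 2 GC boxes and 3 and 10 CG dinucleotides. Which start these cells use was not tested. No base lay in more than 1 match in these windows. Over 32851 such windows 32.7% held a GC box, 33.8% a CCAAT box and 12.4% a TATA box. Of 45 windows found for 38 members, 20 held a GC box, 13 a CCAAT box and 5 a TATA box. These matches describe letters in a window and show nothing about which factors bind there.

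The deposited values come with no named scale and were read as log2 signals. Differences below are Chrm1-/- minus wild type on that scale, and ratios rest on this reading. Array medians lay between 6.49 and 6.57. Over all clusters each array correlated at 0.918 to 0.926 (mean Pearson r) with its own group and at 0.922 to 0.929 with the other, and wild type replicate 3 was the lowest on both counts. Chrm1 read 7.45, 7.44 and 7.67 in wild type and 8.16, 7.52 and 7.58 in Chrm1-/-. Since the position of its probes relative to the deletion is not given, this does not check the labels. Of 10 genes listed for the HSC sort 9 were analysed and all 9 lay above the median signal of all genes. Kit read 10.90 in wild type and 10.88 in Chrm1-/-, while Procr, an HSC surface receptor, read 8.40, 8.45 and 8.50 against 8.16, 8.19 and 8.24. The groups of Procr did not overlap, and in limma its unadjusted p was 0.0393 and its adjusted p 0.996. Of all tested genes 5.79% had groups that did not overlap and 2.99% an unadjusted p under 0.05 in limma. That list includes genes whose proteins mark cells other than HSCs: Flt3, sorted against at the surface, read 9.87 to 10.29 over the arrays, and Cd48, a marker of more mature progenitors, 9.74 to 10.53. Some genes of other lineages were also high. Group means in wild type and Chrm1-/- were 11.35 and 11.27 for Mpo and 10.55 and 10.10 for Ctsg of granulocyte precursors. They were 11.19 and 11.33 for Cpa3 of mast cells, 9.48 and 9.43 for Lyz2 of myeloid cells and 9.44 and 8.57 for Pf4 of megakaryocytes. Other markers of these lineages lay below the median of all genes. Among them were Ly6g (4.41 and 4.64), S100a8 (5.37 and 5.15), Fcer1a (4.21 and 4.37), Ppbp (6.15 and 6.26) and Cd14 (5.82 and 5.92). At or above that median were 3 of 6 analysed granulocyte markers and 3 of 4 each for mast cells and megakaryocytes. Those of the mast cell list were Cpa3, Gata2 and Mcpt8, and those of the megakaryocyte list Pf4, Itga2b and Gp9. A place on such a list does not show that a gene is confined to that lineage. For macrophages and monocytes it was 2 of 6. Markers of T and NK cells lay at 6.00 or less as means over the arrays. The part of other cells in the family's values was not tested. In bulk samples, fewer cells of a type and less RNA per cell cannot be told apart.

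The mean signals of the family ran from 4.24 to 11.21, around a median of all genes of 6.77. The order that follows is one of probe signals and not of transcript amounts, because probes of different genes differ in response. At or above that median, and so tested for a genotype difference, were 21 of 48 members (43.8%, against 50.0% of all genes). Abce1 and Abcf1 lay above percentile 90 of all genes and the other members below it. By branch, the A branch had 2 of 16 members tested and a median signal of 5.83, the B branch 6 of 9 and 7.06, the C branch 4 of 10 and 6.64, the D branch 1 of 3 and 6.69, and the G branch 4 of 6 and 7.40. The single E member and all 3 F members were tested. The same 10 genes led the order in both genotypes, and no member moved by more than 6 places between them. Of 47 pairs of neighbours in the order, 3 had ranges over the 6 arrays that did not overlap: Abce1 over Abcf1 at the top, and at the bottom Abca6 over Abca8a and Abca8a over Abca16. All other neighbours overlapped.

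**Figure D1:**
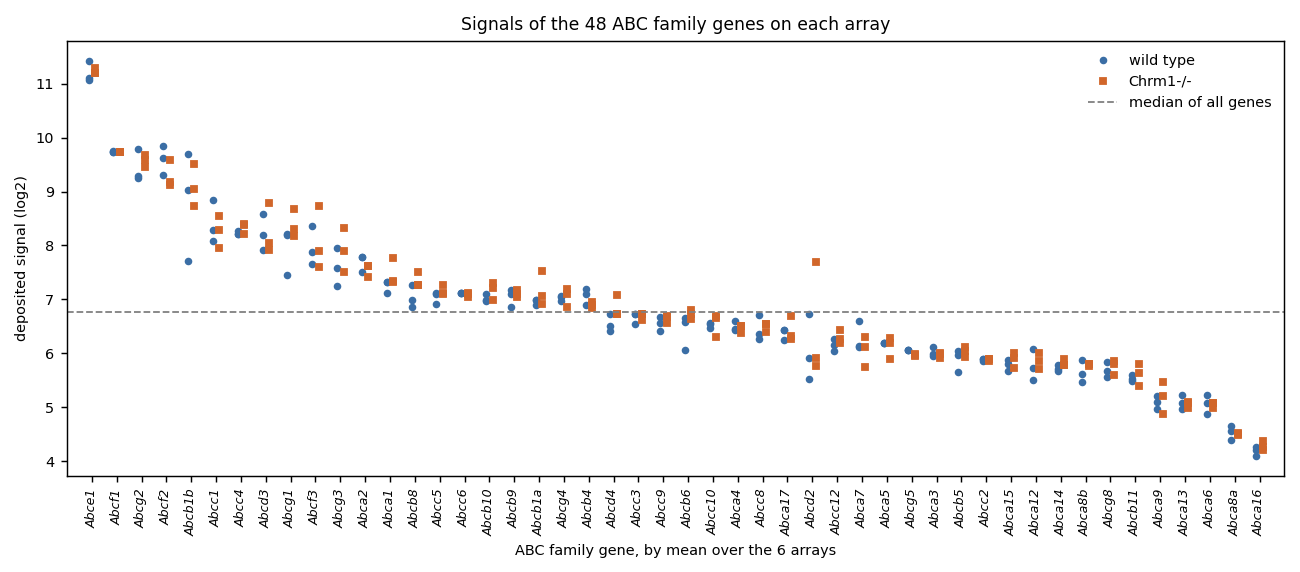
Deposited log2 signal (vertical axis) of the 48 ABC family genes, ordered by their mean over the 6 arrays, with 3 wild type arrays (circles) and 3 Chrm1-/- arrays (squares) per gene and the median of all genes (6.77) as a dashed line. Abce1 stands clear of the rest at 11.06 to 11.43, and the circles and squares overlap for every gene but Abcg5.

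Of the dye-efflux pump genes, Abcg2 had the highest signal, at percentile 89.7 of all genes. Only Abce1 and Abcf1 stood above it in the family's order. It read 9.78, 9.28 and 9.25 on the wild type arrays and 9.46, 9.59 and 9.68 on the Chrm1-/- arrays. The Chrm1-/- values thus lay inside the wild type range, between replicate 1 and the other two. The means were 9.44 ± 0.30 (SD, n = 3) and 9.58 ± 0.11 (SD, n = 3), a difference of 0.14 ± 0.17 (SE) with a 95% interval from -0.28 to 0.56. As a ratio this is 1.10, with bounds of 0.82 and 1.48, so the upper bound lies just under a 1.5-fold rise of Abcg2 signal. The difference moved with single arrays, to 0.31 without wild type replicate 1 (unadjusted p = 0.0543 in limma), 0.06 without wild type replicate 2, 0.05 without wild type replicate 3 and 0.09 without Chrm1-/- replicate 3.

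Abcb1b lay at percentile 85.4 and had the widest spread of the tested members. It read 9.70, 9.03 and 7.72 in wild type and 9.04, 9.52 and 8.73 in Chrm1-/-. Wild type replicates 1 and 3 were the highest and the lowest of the 6 arrays, and the Chrm1-/- arrays fell between them. The difference of 0.28 ± 0.51 (SE) had an interval from -0.96 to 1.52. Without wild type replicate 3 the difference was -0.27, so that 1 array set its sign.

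Abcb1a, the neighbour of Abcb1b, lay at percentile 57.8. It read 6.99, 6.99 and 6.89 in wild type and 7.53, 7.06 and 6.91 in Chrm1-/-. Chrm1-/- replicate 1 stood above the other 5 arrays, which lay between 6.89 and 7.06. The difference was 0.21 ± 0.18 (SE), with an interval from -0.22 to 0.64, and 0.03 without Chrm1-/- replicate 1. How far the probes of Abcb1a and Abcb1b, which encode closely related proteins, tell the genes apart is not stated in the sources used here. For these 3 pumps the order Abcg2, Abcb1b, Abcb1a held for the group means of both genotypes, and the ranges of Abcg2 and Abcb1b over the arrays overlapped.

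**Figure D2:**
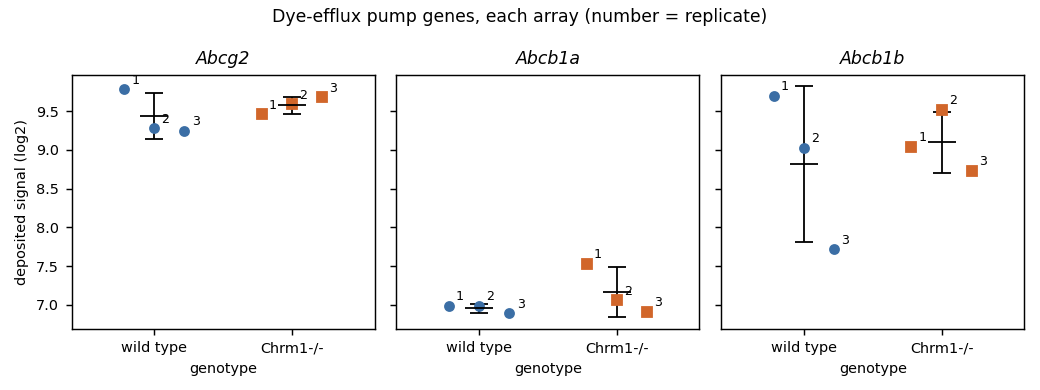
Deposited log2 signal (vertical axis) of Abcg2, Abcb1a and Abcb1b on the wild type (circles) and Chrm1-/- (squares) arrays, numbered by replicate, with the mean and SD of each group in black. The groups overlap for all 3 genes, and wild type replicate 3 of Abcb1b, at 7.72, lies below the other arrays.

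The soluble members were all among the 10 of highest signal, Abce1 and Abcf1 leading the order, and all 4 were tested. Abce1, which splits ribosomes after translation ends, read 11.43, 11.10 and 11.06 in wild type and 11.20, 11.29 and 11.19 in Chrm1-/-. Its groups overlapped and differed by 0.03 ± 0.13 (SE). Abcf1, a partner of translation initiation factor eIF2, read 9.76, 9.74 and 9.74 in wild type and 9.74 on all 3 Chrm1-/- arrays, so that 5 of 6 arrays had the same value to 2 decimals. A repeat over at least 5 of 6 arrays occurred in no other member and in 0.482% of all genes. At least 3 of 6 arrays had 1 value in common for 9 of 48 members (18.8%) and for 12.2% of all genes. The cause was not tested.

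Abcf2, a member of the same branch, read 9.31, 9.63 and 9.85 in wild type and 9.59, 9.18 and 9.13 in Chrm1-/-. The lowest values were those of Chrm1-/- replicates 2 and 3, while replicate 1 lay within the wild type range. Its difference of -0.30 ± 0.20 (SE) was the most negative of the tested members, with an interval from -0.77 to 0.18. Abcf3 read 7.88, 8.36 and 7.65 in wild type and 7.90, 7.60 and 8.74 in Chrm1-/-, with the highest and the lowest arrays both Chrm1-/-. Its difference was 0.12 ± 0.33 (SE), and -0.21 without Chrm1-/- replicate 3. Of 14 related genes for ribosome recycling and initiation, 9 were analysed and tested. Of these, 6 had a higher and 3 a lower mean in Chrm1-/-, and the median difference was 0.06. An unadjusted p under 0.05 in limma was found for 0 of them and for 2.99% of all tested genes.

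Among the multidrug resistance-associated proteins of the C branch, which export drugs and conjugates of glutathione and other acids, 4 of 8 were tested. Abcc1, an exporter of glutathione conjugates and leukotriene C4, read 8.84, 8.09 and 8.28 in wild type and 8.54, 7.95 and 8.28 in Chrm1-/-. The groups overlapped throughout, and the difference was -0.15 ± 0.25 (SE). Its sign turned on single arrays, with 0.07 when wild type replicate 1 was left out and 0.0067 when Chrm1-/- replicate 2 was. Abcc4, an exporter of cyclic nucleotides and prostaglandins, read 8.21, 8.21 and 8.27 in wild type and 8.21, 8.40 and 8.38 in Chrm1-/-. Chrm1-/- replicates 2 and 3 lay above the wild type arrays and replicate 1 did not, for a difference of 0.10 ± 0.11 (SE). Abcc5, an exporter of nucleotide analogues, differed by 0.12 ± 0.12 (SE). Abcc6, whose loss causes ectopic mineralization, read 7.11 on all 3 wild type arrays and differed by -0.02 ± 0.09 (SE).

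The other C branch members lay below the median of all genes and were not tested. Abcc3, an exporter of bile acids and glucuronides, had means of 6.66 in wild type and 6.69 in Chrm1-/-. Abcc10 had 6.53 and 6.56, Abcc12 had 6.15 and 6.30, and Abcc2, the canalicular exporter of liver, had 5.89 and 5.88. The sulfonylurea receptors, which regulate potassium channels and are not exporters, had means of 6.44 and 6.49 for Abcc8 and of 6.55 and 6.64 for Abcc9. Genes that govern drug response and glutathione supply formed the related list. Of 15 analysed 11 were tested, 2 with a higher and 9 with a lower mean in Chrm1-/-. Among the 11, 0 had an unadjusted p under 0.05 in limma, against 2.99% of all tested genes. Their differences ran from -0.40 to 0.61 with a median of -0.06, beside a median of 0.00 over all tested genes. The extremes were Gsr, which encodes glutathione reductase, at -0.40 ± 0.43 (SE), and Ahr, the aryl hydrocarbon receptor, at 0.61 ± 0.41 (SE).

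Lipid exporters numbered 12, of which 5 were tested. Abcg1, which moves cholesterol to high-density lipoprotein and restrains stem and progenitor cell growth, read 8.22, 8.19 and 7.45 in wild type and 8.17, 8.31 and 8.67 in Chrm1-/-. Wild type replicate 3 was the low array, and replicates 1 and 2 lay close to Chrm1-/- replicate 1. Its difference of 0.43 ± 0.25 (SE) was the largest of the tested members, with an interval from -0.18 to 1.04. Without wild type replicate 3 it was 0.18. Abca1, which loads cholesterol onto apolipoprotein A-I, read 7.32, 7.32 and 7.12 in wild type and 7.32, 7.34 and 7.76 in Chrm1-/-. One Chrm1-/- array, replicate 3, was high, and the difference was 0.22 ± 0.16 (SE).

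Abca2, a lysosomal lipid transporter, differed by -0.14 ± 0.13 (SE), Abcg4, a close relative of Abcg1, by 0.02 ± 0.13 (SE), and Abcb4, the phosphatidylcholine exporter of bile, by -0.17 ± 0.12 (SE). Below the median of all genes lay Abca7, with means of 6.28 in wild type and 6.06 in Chrm1-/-, the retinal transporter Abca4 with 6.50 and 6.46, the surfactant lipid transporter Abca3 with 6.02 and 5.97, and the skin lipid transporter Abca12 with 5.77 and 5.86. The bile salt export pump Abcb11 had 5.53 and 5.62.

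Abcg5 and Abcg8, adjacent genes whose proteins pair to export plant sterols in gut and liver, read near 6. Abcg5 was the 1 member of 48 whose groups did not overlap, where 5.39% of all genes did not. It read 6.07, 6.06 and 6.07 in wild type and 5.96, 5.95 and 5.99 in Chrm1-/-, below the signal needed for testing and over a range of 0.12. Abcg8 had means of 5.69 and 5.75. Of 17 related genes of sterol regulation 13 were analysed and 11 tested, 6 with a higher and 5 with a lower mean in Chrm1-/-, at a median difference of 0.01. Npc1, which releases cholesterol from lysosomes, was the 1 with an unadjusted p under 0.05 in limma, against 2.99% of all tested genes. It read 7.49, 7.53 and 7.08 in wild type and 7.73, 7.80 and 7.82 in Chrm1-/-. Its groups did not overlap, as for 5.79% of all tested genes. The difference of 0.42 ± 0.15 (SE) had an adjusted p of 0.996 in limma.

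Macrophages express Abca1 and Abcg1 strongly, so their markers are given beside these genes. Of 7 markers 6 were analysed and 2 tested. Their mean per array ran from 7.04 to 7.52 in wild type and from 6.97 to 7.12 in Chrm1-/-. Cd68 read 8.79, 9.0 and 10.25 in wild type and 8.47, 8.16 and 8.19 in Chrm1-/-, highest on the array where Abcg1 was lowest. Its groups did not overlap, as for 5.79% of all tested genes. The Cd68 difference of -1.07 ± 0.39 (SE) had an unadjusted p of 0.0309 and an adjusted p of 0.996 in limma. Wild type replicate 3 was also the highest array for Lyz2, the other tested marker, at 9.66 against 9.30 to 9.58 on the others. The same held for Csf1r, the growth factor receptor of the lineage, at 6.59 against 6.26 to 6.46. Adgre1 read 6.88 there and 6.46 to 6.79 on the others. Cd14 and Mrc1 were highest on Chrm1-/- arrays, at 6.02 on replicate 1 and 5.85 on replicate 3. The part of macrophages in the lipid exporter values was not tested.

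Mitochondrial half-transporters were represented by Abcb6, Abcb8 and Abcb10. All 3 had a higher mean in Chrm1-/-, and the 2 that were tested, Abcb8 and Abcb10, did not pass. Abcb8, an inner membrane transporter linked to mitochondrial iron export, read 6.86, 6.98 and 7.27 in wild type and 7.51, 7.26 and 7.26 in Chrm1-/-. Wild type replicate 3 reached the Chrm1-/- values and the other wild type arrays lay below them. Its difference of 0.31 ± 0.15 (SE) had the smallest unadjusted p of the family in limma, 0.0861. Without wild type replicate 3 the difference was 0.42 and the unadjusted p 0.026, and neither setting passed after adjustment over all genes.

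Abcb10, which supports haem synthesis and is strongly expressed in red cell precursors, read 7.10, 6.98 and 6.97 in wild type and 6.98, 7.22 and 7.30 in Chrm1-/-, a difference of 0.15 ± 0.13 (SE). Abcb6, a porphyrin transporter, had means of 6.43 ± 0.32 (SD, n = 3) and 6.72 ± 0.09 (SD, n = 3) and was not tested. Of 19 related genes of haem and iron-sulphur cluster synthesis 16 were analysed and 14 tested, 7 with a higher and 7 with a lower mean, at a median difference of 0.01. Of these 0 had an unadjusted p under 0.05 in limma, against 2.99% of all tested genes. The 4 analysed of 8 erythroid markers had means per array of 7.31 to 7.32 in wild type and 7.18 to 7.43 in Chrm1-/-.

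Peroxisomal and lysosomal members were Abcd2, Abcd3, Abcd4 and Abcb9. Abcd3, which imports branched-chain fatty acids and bile acid precursors into peroxisomes, read 8.58, 7.91 and 8.19 in wild type and 8.79, 8.05 and 7.92 in Chrm1-/-. Replicate 1 was the highest array of each genotype, and the difference was 0.03 ± 0.28 (SE), or -0.24 without Chrm1-/- replicate 1. Abcd2, which imports very long-chain fatty acids, read 6.73, 5.92 and 5.52 in wild type and 7.70, 5.92 and 5.77 in Chrm1-/-. Its range of 2.18 was the widest of the 48, with both arrays numbered 1 above the rest. It was singled out after its values were seen and lay below the signal needed for testing.

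The arrays numbered 1 were the top pair for 4 of 48 members (Abcc1, Abcd2, Abcd3 and Abcg3, 8.33%) and for 4.17% of all genes. The arrays numbered 2 were the top pair for 0 of 48 members and 4.46% of all genes. Those numbered 3 were so for 0 of 48 members and 6.96% of all genes. The T cell gene Cd3g, also picked after its values were seen, read 6.32 and 7.16 on the arrays numbered 1 and 4.87 to 5.47 on the others. Genes of other lists, picked in the same way, had this pair on top as well. Mcpt8 of the mast cell list read 9.93 and 10.56 against 6.72 to 9.33. Flvcr1 of the haem list read 7.89 and 8.42 against 6.57 to 7.31. In both of these lists no other analysed gene had this pair on top. The whole list of 4 T and NK cell markers had means per array of 5.75 to 6.00 in wild type and 5.62 to 6.18 in Chrm1-/-, and Cd3e read 5.88 and 5.89 on the same arrays against 5.86 to 6.14 on the others. The part of T, NK or mast cells in the Abcd2 values was not tested.

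Abcb9, a lysosomal peptide transporter, differed by 0.07 ± 0.12 (SE), and Abcd4, which serves the lysosomal release of cobalamin, had means of 6.54 and 6.84 and was not tested. Of 18 related peroxisome genes 14 were analysed and 12 tested, 7 with a higher and 5 with a lower mean and a median difference of 0.02. Pex3, which starts the insertion of peroxisomal membrane proteins, was the 1 with an unadjusted p under 0.05 in limma, against 2.99% of all tested genes. Pex3 read 8.19, 8.69 and 8.67 in wild type and 8.19, 7.75 and 7.68 in Chrm1-/-. Its groups met at 8.19, and its difference of -0.64 ± 0.21 (SE) had an adjusted p of 0.996 in limma.

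Of the 12 remaining members, Abcg3, a rodent relative of Abcg2, was the 1 tested. It read 7.96, 7.59 and 7.25 in wild type and 8.32, 7.90 and 7.50 in Chrm1-/-, with overlapping groups and a difference of 0.31 ± 0.27 (SE). The others, Abcb5 and the A branch genes Abca5, Abca6, Abca8a, Abca8b, Abca9, Abca13, Abca14, Abca15, Abca16 and Abca17, had mean signals between 4.24 and 6.40. Abca8b, Abca8a, Abca9, Abca6 and Abca5 follow one another on chromosome 11 in the RefSeq gene table, and Abca14, Abca15 and Abca16 on chromosome 7. The lowest signals of the family, those of Abca16, Abca8a, Abca6 and Abca9, came from these rows, and Abca13 gave the other. Family members that carry other names fell outside the rule. Of these, the peptide transporter genes of antigen presentation had group means of 9.0 and 8.95 for Tap1 and of 7.29 and 7.41 for Tap2. The chloride channel gene Cftr read 4.75, 4.62 and 4.86 in wild type and 4.89 on all 3 Chrm1-/- arrays, a region of signal where no test was made.

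Across the family, no member met a threshold for a genotype difference. Of 21 tested members 0 had an adjusted p under 0.05 in limma, with 0.996 as the adjusted p of each, and 0.0% of all 11094 tested genes passed. At an unadjusted p under 0.05 there were 0 of 21, against 2.99% of all tested genes, and 0 also in the fit without moderation. Groups did not overlap for 0 of 21, against 5.79% of all tested genes. A higher mean in Chrm1-/- was found for 15 of 21, where 50.0% of all tested genes were higher, and for 33 of all 48 where 52.8% of all genes were. The median difference was 0.10 over the 21 tested members and 0.00 over all tested genes.

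Of the fits with 1 array left out, the one without wild type replicate 3 moved the median difference of the tested members most. The median was 0.065 without Chrm1-/- replicate 2. The cause was not tested. Wild type replicate 3 is described next. This array was the single lowest of the 6 for 9 of 21 tested members (42.9%), among them Abcb1b, Abcg1, Abcg2 and Abca1, and for 19.4% of all tested genes. Without it 12 of 21 members were higher and the median difference was 0.03. Without wild type replicate 2 the number was also 12 of 21, at a median of 0.09. The precision of the comparison was that of 3 arrays a group, with a median standard error of 0.15 over the tested members and 0.17 over all tested genes. The 95% interval left out a 2-fold difference in either direction for 19 of 21 members, the exceptions being Abcb1b and Abcg1, and for 83.7% of all tested genes. It left out a 1.5-fold difference for 11 of 21 (52.4%), close to the 53.3% of all tested genes. A missed threshold does not show that the genotypes are alike.

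**Figure D3:**
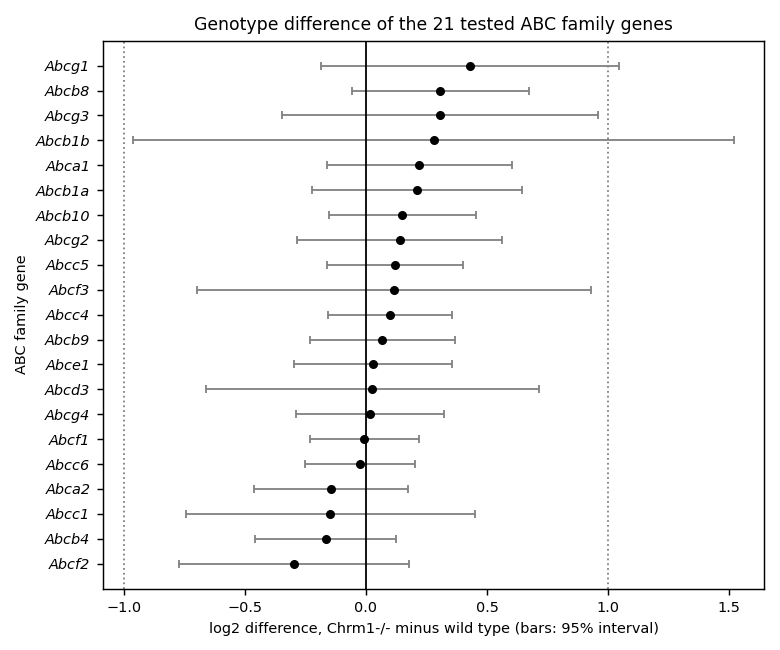
Log2 difference, Chrm1-/- minus wild type (horizontal axis), of the 21 tested ABC family genes with 95% intervals from limma and dotted lines at a 2-fold difference. Every interval includes 0, and Abcb1b, from -0.96 to 1.52, has the widest.

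**Figure D4:**
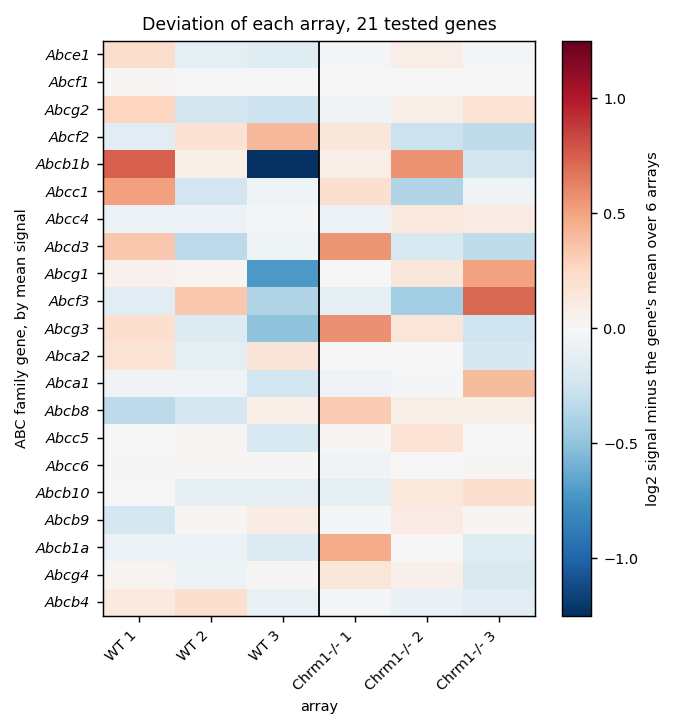
Log2 signal of each array (columns) less the gene's mean over the 6 arrays (colour) for the 21 tested genes (rows, by mean signal). Wild type replicate 3 is low for Abcb1b and Abcg1, both arrays numbered 1 are high for Abcd3 and Abcc1, and Abcf1 and Abcc6 are nearly flat.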

How the data were processed

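HSC RNA from 3 wild type and 3 Chrm1-/- samples, grouped by title, was measured on Affymetrix mouse gene ST arrays after NuGEN amplification, per the series design text and the labels' protocols. The authors used Affymetrix's own analysis software on the arrays, per the series design text; its version and how it summarized and normalized the probes are not stated in the sources used here. Since the deposited table names no scale, its values, 3.02 to 13.67, were read as log2 signals and used as they stand. Whether replicates are separate mice is not given, so p-values measure the spread between these samples, and that spread may be technical.

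Of 41345 clusters 23521 had 1 symbol, 1814 several and 16010 none in the platform table. The cluster of highest mean was kept per gene, and no ABC cluster had several symbols. All 48 members matched a RefSeq gene (GRCm38.p6) by gene ID, with 0 symbols changed. Genes whose mean reached the median of all genes, 6.77, went into the test, limma 3.58.1 in R 4.3.3 (lmFit and eBayes, two-sided, Benjamini-Hochberg over 11094 genes, threshold 0.05). Standard errors and 95% intervals are limma's moderated ones. The fit was tested on simulated data.

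Members and lists were chosen with earlier results of these data known. All 6 values are given for Abcg2, Abcb1a, Abcb1b, the 10 members of highest mean signal and any tested member with an unadjusted p under 0.05 or separate groups, and further for a few singled out by their values: Abca1, Abcb8, Abcb10, Abcg3, Abcd2 and Abcg5. Lists comprised 8 roles, 6 related lists and 9 sets of cell markers. Of the marker sets the granulocyte set had 6 of 6 analysed and array means from 7.32 to 7.73, megakaryocyte 4 of 5 and 7.41 to 7.82, mast cell 4 of 4 and 7.41 to 8.63, B cell 3 of 4 and 6.02 to 6.68, and endothelium and stroma 6 of 6 and 6.92 to 7.04. Alternatives were another filter on dim genes, median centring or quantile normalization, averaging a gene's clusters, other moderation (trend and robust, or none), array weights, a replicate block and leaving out each array. Python 3.11.15, pandas 2.3.3, numpy 2.4.6 and matplotlib 3.10.9 were used.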

Additional observations from a re-analysis of the deposited data

How the results depend on the processing

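Over all genes, the number with an adjusted p under 0.05 in limma was 0 (332 at an unadjusted p under 0.05), 1 without moderation, and 0 to 1 on leaving out 1 array. The unadjusted number was 567 with no filter on dim genes, 169 with the filter at the 75th percentile (22180 and 5547 genes tested), and 335 to 522 on leaving out 1 array, highest without wild type replicate 3. Among ABC members the unadjusted number was 0, 1 with array weights, and 0 to 1 on leaving out 1 array, in both cases Abcb8. The members' median difference was 0.03 with the filter at the 75th percentile, which left 9 members, and 0.027 to 0.147 on leaving out 1 array. Of the 9 alternatives that kept all arrays, only quantile normalization, median centring and array weights could change a member's difference. The others leave each member's difference as it is by construction, so they do not bear on its sign. Under those that could change it, 2 members turned sign, Abcf1 to 0.0075 under quantile normalization and Abcf3 to -0.024 with array weights. On leaving out 1 array 7 of 21 members turned sign at least once, over -0.27 to 0.72 for Abcb1b, -0.025 to 0.13 for Abcb9, -0.303 to 0.072 for Abcc1, -0.24 to 0.20 for Abcd3, -0.038 to 0.147 for Abce1, -0.21 to 0.36 for Abcf3 and -0.055 to 0.115 for Abcg4. Abcg2 kept its sign, over 0.05 to 0.31. The cause was not tested. Deviations of same-numbered arrays from their group means correlated at -0.031, 0.0088 and -0.0113 for replicates 1, 2 and 3. Between arrays of unlike number the correlations ran from -0.0232 to 0.0344. The titles give the samples a number and do not say whether same-numbered samples were handled together. These correlations, from 3 arrays a group, cannot settle it. With the replicate block 396 genes had an unadjusted p under 0.05, 0 an adjusted one, and the ABC members 0, with a median difference of 0.10.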
